A study of Homo sapiens with 9 samples.

Results

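Histone genes encode the small basic proteins that package DNA into nucleosomes. The members described here are all protein-coding genes with a histone symbol, in current or older naming, without the macroH2A genes. There were 89 of them among 60880 gene rows, 69 clustered and 20 variant. The clustered genes are the replication-dependent copies of the histone clusters, 6 for H1, 17 for H2A, 18 for H2B, 15 for H3 and 13 for H4. The rule uses gene names only.

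RNA sequencing compared 3 groups of 3 libraries from LNCaP, an androgen-responsive human prostate cancer cell line. The rescue group overexpressed UGT2B28 in the knockdown background, the knockdown group had UGT2B28 knocked down, and the control group carried the NT label. UGT2B28 belongs to an enzyme family that conjugates steroids to glucuronic acid. Puromycin at 3 µg/mL served as selection for knockdown and G418 at 1 mg/mL for rescue, all libraries carry a time label of 24 h, and all cells grew in RPMI with serum and antibiotics. All knockdown and rescue libraries derive from 1 knockdown line, KD4, so line and knockdown cannot be told apart. The rescue libraries all carry the label KD4OE, and G418 served as their selection. UGT2B28 re-expression thus cannot be told apart from that selection or from the deriving of the line. The labels do not say whether the 3 libraries of a group were separate cultures, so a p-value here covers no more than the variation among the sequenced libraries, and that variation may be technical.

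Clustered histone genes are transcribed mainly in S phase, when new DNA needs new nucleosomes. Their mRNAs mostly have no introns and end in a conserved stem-loop in place of a poly(A) tail; the stem-loop binding protein SLBP and the U7 small nuclear ribonucleoprotein direct the cut behind it. Some of them also give polyadenylated RNA, above all in cells that leave the cycle. Variant, or replacement, histones are mostly made throughout the cell cycle from polyadenylated mRNA and exchanged into chromatin outside replication.

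The stem-loop is what the clustered genes share beyond their names, and it is shown because the RNA end bears on what a poly(A)-selected library would hold. Among hairpins with 6-base arms and a 4-base loop in the GENCODE v29 3′ untranslated regions of clustered members, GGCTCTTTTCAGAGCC occurred in the most, 16 genes. A search for these 16 letters with up to 2 mismatches found it in 26 of the 35 clustered members with an annotated 3′ untranslated region. It was found in 0 of 18 variant members and in 33 of 19383 other protein-coding genes (0.17%). A stem-loop that differs from these letters at more than 2 places would be missed by this search. The best matches of the leading members are given 5′ to 3′, with both arms of the stem in capitals and the loop in lower case.
H2BC21: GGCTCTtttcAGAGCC
H2AC6: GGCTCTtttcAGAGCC
H2BC5: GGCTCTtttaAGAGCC
H3C6: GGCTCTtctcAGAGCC
H2AC11: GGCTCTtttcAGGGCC
H4C8: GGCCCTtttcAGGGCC
The arms were the same in H2BC21, H2AC6, H2BC5 and H3C6; the H2BC5 and H3C6 loops differ from the one that H2BC21 and H2AC6 share, whereas H2AC11 and H4C8 differ in the arms. For 19 members the annotation runs more than 50 bases past the stem-loop, by 1729 bases in H2BC21, 1655 in H4C8 and 1128 in H2AC6. No 3′ untranslated region was annotated for 34 clustered members, H1-2 and H2BC12 among them, so the search says nothing about these.

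Gene counts summed to 20300744 to 26459528 per library. UGT2B28 had 1124, 1554 and 1857 counts in rescue libraries, 17, 8 and 1 in knockdown libraries and 25, 4 and 10 in control libraries. Unless another tool, setting or left-out library is named, the adjusted p is that of edgeR's quasi-likelihood test with Benjamini-Hochberg adjustment over the 18389 genes with enough counts. A gene was called when the adjusted p was under 0.05, and SE is the standard error of the log2 fold change. UGT2B28 was higher in rescue than in knockdown (log2 fold change 7.41, adjusted p = 2.7e-08). Its knockdown was not detectable at this depth (-0.60, SE 0.62, adjusted p = 0.52; without control replicate 1 the difference was 0.16, adjusted p = 0.87). All 10 luminal prostate markers were detected, with a summed level of 9230 to 10210 CPM, counts scaled to a common library size, in rescue, 9155 to 9610 in knockdown and 4309 to 4540 in control libraries. Markers of other cells summed to 64.7 to 77.7 CPM in rescue, 51.2 to 62.8 in knockdown and 67.7 to 76.9 in control libraries, and the leukocyte gene PTPRC was at 0 in every library. Most of that sum was COL1A1, a collagen gene, which fell in knockdown over control (-0.50, adjusted p = 0.00018), whereas the basal keratin gene KRT14 had 2.79, 3.09 and 4.34 CPM in rescue, 3.92, 3.19 and 5.20 in knockdown and 1.53, 2.41 and 1.36 in control libraries and rose (1.22, adjusted p = 0.0017). The part of these shifts in the histone results was not tested.

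Of the 89 members, 38 had enough counts to be tested, 30 clustered and 8 variant. Another 25 had 0 counts in every library, 19 of them clustered. The remaining untested members were near that level: the highest, H4C3, had 48 counts over all 9 libraries, and H1-5 had 17, of which 16 lay in 1 library. A clustered gene that passed the filter because it is high in 1 group had to differ, so the counts of tested members describe these genes and not all 69.

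Most of the tested clustered histone genes were higher in knockdown than in control cells, whereas the tested variant genes differed by less than 2-fold apart from H2AJ. In knockdown against control, 25 of 30 tested clustered members rose and 0 fell, beside 32.1% of all 18389 tested genes called in either direction, 16.5% higher and 15.6% lower. The median log2 fold change of the 30 clustered members was 1.60, with a range of -0.25 to 3.17, beside 0.01 over all genes. That median includes members that passed the filter only through groups where they are high, such as H3C13 with 6, 0 and 1 control counts. At least 2-fold differences in favour of knockdown were seen in 21 of these 30. The same share over all 18389 tested genes was not counted. Their log2 fold changes had an SD of 0.847. Of the 8 tested variants 3 rose and 1 fell, with a median of 0.14. The count of 0 for lower clustered members came from edgeR; it was 0 also at an unadjusted p under 0.05, in DESeq2 and in limma voom.

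Clustered histone RNA in rescue cells was not at the control level, and 13 members were higher still than in knockdown cells. In rescue against knockdown these were 13 of 30 tested clustered members, and 0 fell, beside 10.1% of all genes called in either direction, 5.2% higher and 4.88% lower. The median of all 30 was 0.67, beside -0.01 over all genes. No clustered member was called lower by edgeR, DESeq2 or limma voom, and 1, H2AC8, was lower at an unadjusted p under 0.05. Of the 8 variants 3 rose and 0 fell in rescue against knockdown, with a median of 0.18; 0 were lower at an unadjusted p under 0.05 or in either other tool. In rescue against control 27 of 30 clustered members rose, and the median of all 30 was 2.22. There 8 of 8 tested variants rose with a median of 0.40 (5 of 8 without rescue replicate 2). Of all genes 37.8% were called, 19% higher and 18.8% lower. None of the 38 fell in that comparison by edgeR, DESeq2, limma voom or an unadjusted p under 0.05. These 3 comparisons share libraries, so their calls are not independent of each other.

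**Figure D1:**
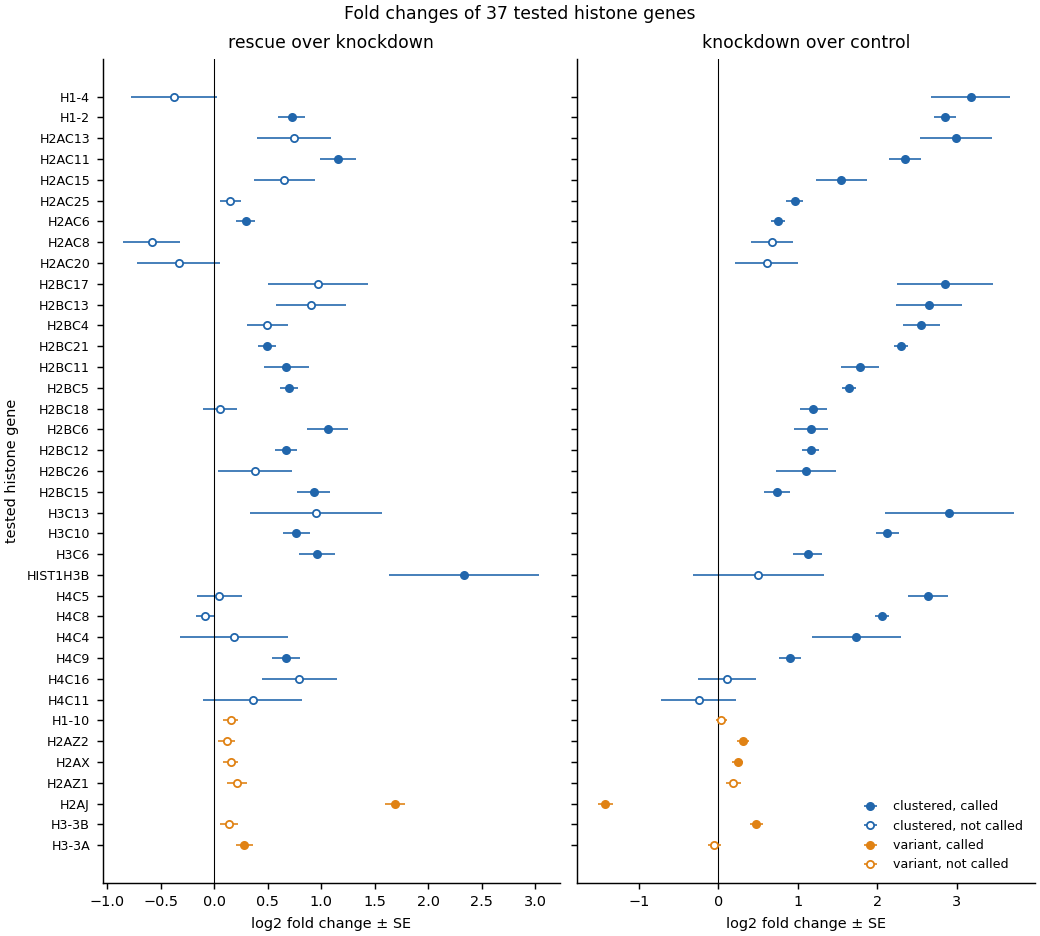
Log2 fold changes with standard errors of 37 tested histone genes (rows) for rescue over knockdown (left) and knockdown over control (right). Filled points passed an adjusted p of 0.05, open points did not; blue marks clustered and orange variant genes. In the right panel the filled blue points lie above 0, and H2AJ is the orange point at -1.42, which lies at 1.69 in the left panel.

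The summed level of the 69 clustered members was 1101, 1191 and 1170 CPM in rescue libraries, 773, 904 and 786 CPM in knockdown libraries and 243, 257 and 244 CPM in control libraries. The 3 groups did not overlap. The means were 1154 ± 47.3, 820.7 ± 72.3 and 248 ± 8.04 CPM for rescue, knockdown and control (SD, n = 3 each), that is 3.31 times as much in knockdown as in control and 1.41 times as much in rescue as in knockdown. The 20 variant members summed to 2596 ± 164 CPM in rescue, 2147 ± 106 in knockdown and 1911 ± 123 in control cells, ratios of 1.21 for rescue over knockdown and 1.12 for knockdown over control. Clustered genes took 30.8% ± 1.4 of all histone reads in rescue, 27.6% ± 1.09 in knockdown and 11.5% ± 0.451 in control cells, a share of reads that is not adjusted for transcript length. In bulk RNA, more cells that express a gene and more RNA per cell cannot be told apart.

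**Figure D2:**
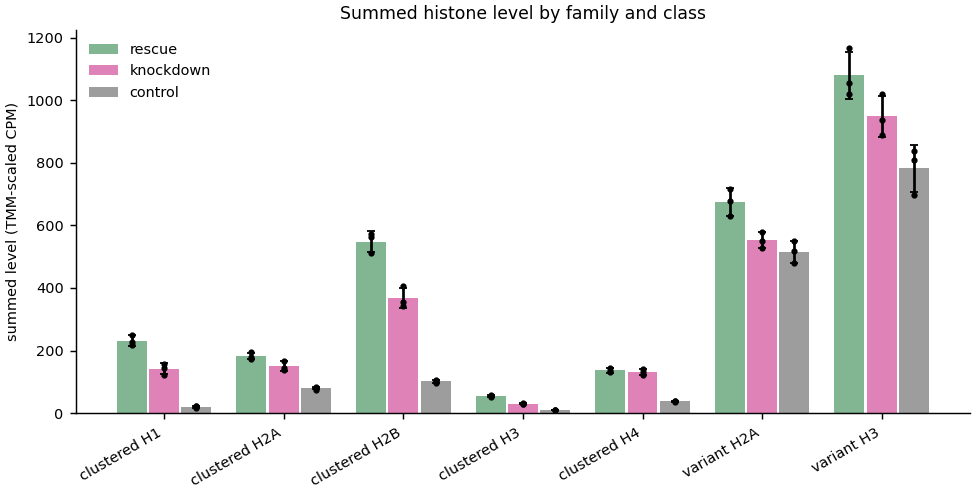
Summed level in TMM-scaled CPM of the clustered members of each histone family and of the H2A and H3 variants. Bars are means, error bars SD and black points the 3 libraries of rescue (green), knockdown (pink) and control (grey). Clustered H4 stands at 136.7 CPM in rescue and 131.2 in knockdown cells, whereas clustered H2B stands at 549 and 368 CPM, and the variant H2A and H3 levels differ by at most 1.38 times between any 2 groups.

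A few genes carried most of that level. The 6 clustered genes with the most reads over all libraries, H2BC21, H1-2, H2BC5, H4C8, H2AC6 and H2AC25, held 78% ± 1.08 of clustered reads in rescue, 80.2% ± 0.805 in knockdown and 74.3% ± 1.09 in control cells. The make-up within them differed between groups. H1-2 held 19.9% ± 1.4 of clustered reads in rescue, 17% ± 1.37 in knockdown and 7.79% ± 1.52 in control cells. H2AC6 went the other way, with 7.67% ± 0.363 in rescue, 8.82% ± 0.646 in knockdown and 17.3% ± 0.700 in control cells. Per kilobase of annotated exon, the mean level of H1-2 was 358 CPM per kb in rescue, 217 in knockdown and 30.2 in control cells, the highest of the tested clustered genes in rescue and knockdown cells. H2BC12, the highest in control cells, had 139, 87.4 and 39.1 CPM per kb in rescue, knockdown and control cells. Among the variants, H1-10 had 149, 134 and 131 and H2AZ1 146, 126 and 111 CPM per kb in the same order of groups. Ranks per kilobase depend on the exon length in GENCODE v29, whereas the counting used hg19. That length is 642 bases for H1-2 and 381 for H2BC12, both without an annotated 3′ untranslated region, and 2194 for H2BC21.

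Linker histone H1 binds the DNA between nucleosomes, and its clustered family showed the highest summed ratios over control, 11.8 in rescue and 7.23 in knockdown cells. Nearly all of that sum was H1-2, with a mean of 230 of 231.8 CPM in rescue and 139.4 of 141.9 in knockdown cells. H1-2 had 227, 249 and 214 CPM in rescue libraries, 119, 156 and 142.5 in knockdown libraries and 20.6, 22.8 and 14.8 in control libraries. The groups did not overlap, and rescue was highest. The log2 fold change was 2.85 for knockdown over control (SE 0.14, adjusted p = 8.1e-10), 0.72 for rescue over knockdown (SE 0.12, adjusted p = 0.0016) and 3.57 for rescue over control. The other tested clustered linker gene, H1-4, had 1.08, 2.08 and 2.13 CPM in rescue, 3.05, 2.14 and 1.70 in knockdown and 0.449, 0.185 and 0.0907 in control libraries. It rose in knockdown over control (3.17, SE 0.49, adjusted p = 9.9e-06), and rescue and knockdown libraries overlapped (-0.37, adjusted p = 0.65). H1-1, H1-3, H1-5 and H1-6 were untested, 0 to 17 counts in all libraries together.

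H2A and H2B form the dimers on the outer faces of the nucleosome. Clustered H2A summed to 2.28 times the control level in rescue and 1.87 times in knockdown cells. In knockdown over control 5 of 7 tested members were called higher (median of the 7, 0.96), beside 16.5% of all genes. In rescue over knockdown 2 of 7 were higher, beside 5.2%. H2AC11 had 18.9, 13.8 and 20.3 CPM in rescue, 7.09, 8.24 and 8.46 in knockdown and 1.46, 1.53 and 1.68 in control libraries. Each group stood apart from the next for this gene, and it rose by 2.35 in knockdown over control (SE 0.20, adjusted p = 2.8e-10) and by 1.16 in rescue over knockdown (SE 0.17, adjusted p = 1.8e-05).

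H2AC6 and H2AC25 started from higher control levels and differed less. H2AC6 had 81.0, 90.4 and 94.4 CPM in rescue, 73.3, 79.3 and 64.4 in knockdown and 42.5, 42.6 and 43.7 in control libraries, with log2 fold changes of 0.75 for knockdown over control (SE 0.09, adjusted p = 9.2e-08) and 0.29 for rescue over knockdown (SE 0.09, adjusted p = 0.028). Leaving out knockdown replicate 1 (adjusted p = 0.061) or 3 (0.16), or rescue replicate 2 (0.098) or 3 (0.13), ended the call in rescue over knockdown. H2AC25, which lies on chromosome 1 outside the main cluster, had 58.1, 65.1 and 67.0 CPM in rescue, 53.8, 64.8 and 53.0 in knockdown and 25.8, 29.5 and 33.0 in control libraries. It rose in knockdown over control (0.96, SE 0.10, adjusted p = 1.8e-08), and its rescue and knockdown libraries overlapped (0.15, SE 0.10, adjusted p = 0.41).

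H2AC8 did not pass the test in any of the 3 comparisons. It had 3.67, 3.53 and 3.41 CPM in rescue, 3.73, 7.90 and 4.28 in knockdown and 2.47, 3.94 and 3.63 in control libraries. Knockdown replicate 2 stood above the rest. The difference for knockdown over control was 0.67 (SE 0.26, adjusted p = 0.053). It was 0.26 without knockdown replicate 2 (adjusted p = 0.54), and it passed without control replicate 2 (adjusted p = 0.046), knockdown replicate 1 (0.019) or knockdown replicate 3 (0.044) and with no filter (0.040) or with the replicate number as a block (0.046). The other tested H2A genes were H2AC13 and H2AC15, which rose by 2.99 and 1.55 in knockdown over control, and H2AC20, which did not pass (0.61, adjusted p = 0.26). The H2AC15 model lies wholly within H2BC15 on the opposite strand. Since the strand setting of the counting is not given, how reads over both models were assigned or left out is not known.

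All 11 tested clustered H2B genes rose in knockdown over control, by 0.74 to 2.85 with a median of 1.65, beside 16.5% of all genes called higher. The call of H2BC26 was lost in limma voom (adjusted p = 0.075) and without control replicate 2 (0.069), control replicate 3 (0.097) or knockdown replicate 2 (0.30). In rescue over knockdown 6 of 11 rose, beside 5.2% of all genes. H2BC11 lost that call when replicate 1 or 2 of knockdown (adjusted p = 0.18 and 0.088) or of rescue (0.061 and 0.27) was left out. H2BC21, the clustered gene with the most reads in rescue and knockdown libraries, had 266, 297 and 300 CPM in rescue libraries, 187, 236 and 191 in knockdown libraries and 38.8, 43.8 and 42.0 in control libraries. The groups did not overlap, and the log2 fold changes were 2.30 for knockdown over control (SE 0.09, adjusted p = 1.1e-17) and 0.49 for rescue over knockdown (SE 0.08, adjusted p = 0.00015). H2BC5 had 130.2, 146 and 124 CPM in rescue, 80.6, 84.6 and 81.9 in knockdown and 26.9, 28.4 and 23.5 in control libraries. It rose by 1.65 in knockdown over control (SE 0.09, adjusted p = 7.8e-15) and by 0.70 in rescue over knockdown (SE 0.08, adjusted p = 9.4e-07).

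The next H2B genes by reads had the same order of groups. H2BC12 had 47.7, 53.7 and 57.6 CPM in rescue, 30.9, 36.1 and 32.9 in knockdown and 14.6, 16.6 and 13.5 in control libraries, with log2 fold changes of 1.16 for knockdown over control (adjusted p = 1.8e-09) and 0.67 for rescue over knockdown (adjusted p = 5.1e-05). H2BC15 had 16.1, 19.0 and 19.8 CPM in rescue, 9.07, 9.46 and 10.3 in knockdown and 6.25, 4.31 and 6.67 in control libraries. Its differences were 0.74 for knockdown over control (adjusted p = 0.00093) and 0.93 for rescue over knockdown (adjusted p = 0.00014). Among lower genes, H2BC17, H2BC13 and H2BC4 rose by 2.85, 2.65 and 2.55 in knockdown over control, while their differences of 0.97, 0.91 and 0.49 in rescue over knockdown did not pass (adjusted p = 0.21, 0.077 and 0.11); that of H2BC13 passed in limma voom (adjusted p = 0.041) and with only the 2 groups fitted (0.034). The models of H2BC6 and H2BC18 share 730 and 177 bases with genes on the opposite strand, and how reads there were assigned or left out is not known.

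**Figure D3:**
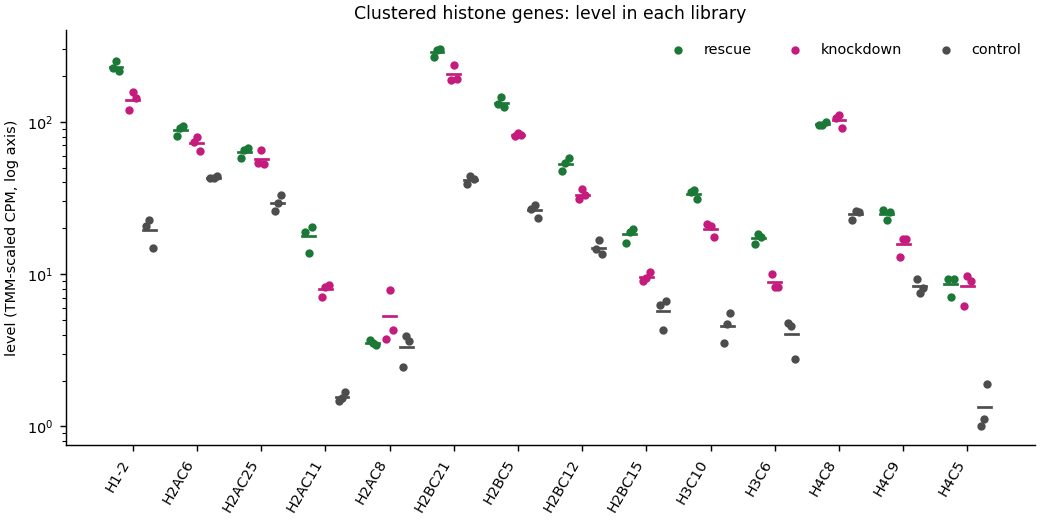
Level of 14 clustered histone genes in each library, in TMM-scaled CPM on a log axis. Points are libraries and short lines the mean of rescue (green), knockdown (pink) and control (grey). H2BC21, H2BC5 and H3C10 are highest in rescue and lowest in control, whereas the rescue and knockdown points of H4C8 and H4C5 overlap.

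H3 and H4 form the tetramer at the centre of the nucleosome. Of 4 tested clustered H3 genes 3 rose in knockdown over control and 3 in rescue over knockdown, beside 16.5% and 5.2% of all genes. The summed level was 6 times the control level in rescue and 3.32 times in knockdown cells. H3C10 had 34.8, 35.6 and 31.0 CPM in rescue, 21.2, 20.7 and 17.6 in knockdown and 3.52, 4.68 and 5.54 in control libraries. The log2 fold changes were 2.13 for knockdown over control (SE 0.15, adjusted p = 2.4e-12) and 0.77 for rescue over knockdown (SE 0.13, adjusted p = 0.00012). H3C6 had 15.7, 18.4 and 17.4 CPM in rescue, 9.98, 8.24 and 8.28 in knockdown and 4.75, 4.59 and 2.77 in control libraries, and rose in both comparisons (1.13, adjusted p = 1.9e-05, and 0.96, adjusted p = 0.00024). Both genes kept the 3 groups apart.

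The remaining H3 genes rest on few counts. H3C13 had 27, 57 and 22 counts in rescue, 6, 22 and 25 in knockdown and 6, 0 and 1 in control libraries, and rose in knockdown over control (2.90, SE 0.81, adjusted p = 0.0065). The difference was 4.75 without control replicate 1, which holds 6 of the 7 control counts (adjusted p = 0.00098). HIST1H3B, for which only the older symbol was at hand, had 26, 15 and 42 counts in rescue, 7, 1 and 8 in knockdown and 4, 4 and 3 in control libraries. It rose in rescue over knockdown (2.33, SE 0.70, adjusted p = 0.032), which did not pass when knockdown replicate 1 (adjusted p = 0.068) or 2 (0.13), or rescue replicate 1 (0.09) or 3 (0.16), was left out.

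Nearly all clustered H4 genes encode the same protein, and most of their reads came from H4C8. H4C8 had 94.8, 95.0 and 100.3 CPM in rescue, 106, 111 and 90.8 in knockdown and 22.7, 25.9 and 25.4 in control libraries. Rescue and knockdown libraries overlapped far above control, with 2.06 for knockdown over control (SE 0.09, adjusted p = 9.4e-17) and -0.09 for rescue over knockdown (SE 0.08, adjusted p = 0.61). H4C5 showed a like picture, 9.26, 7.09 and 9.35 CPM in rescue, 6.21, 9.67 and 9.06 in knockdown and 1.01, 1.11 and 1.91 in control libraries, with 2.63 for knockdown over control (SE 0.25, adjusted p = 1.8e-09) and 0.05 for rescue over knockdown (SE 0.21, adjusted p = 0.93).

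H4C9 was called in both comparisons. It had 26.2, 22.7 and 25.7 CPM in rescue, 13, 17.1 and 16.9 in knockdown and 9.24, 7.56 and 8.12 in control libraries, and rose by 0.91 in knockdown over control (SE 0.14, adjusted p = 7.3e-06) and by 0.67 in rescue over knockdown (SE 0.13, adjusted p = 0.00079). H4C4 rose in knockdown over control (1.74, adjusted p = 0.018; without control replicate 3, 0.083, and without knockdown replicate 1, 0.079), and H4C11 did not pass (-0.25, adjusted p = 0.73). Summed clustered H4 was 136.7 ± 7.21 CPM in rescue, 131.2 ± 10.7 in knockdown and 37.9 ± 1.60 in control cells, a ratio of 1.04 for rescue over knockdown. The same ratio was 1.80 for clustered H3, 1.63 for H1 (nearly all H1-2), 1.49 for H2B and 1.22 for H2A. Differences between families were not tested.

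The bases before the start site are shown for H2BC21, H1-2, H4C8 and H2AJ, which differ in the promoter elements that histone genes are known for. A link between these elements and the group differences was not tested. The 250 bases upstream of the start are from RefSeq (GRCh38.p14), printed 5′ to 3′ on the gene's strand. Capitals mark the octamer ATTTGCAT, the CCAAT box CCAAT and the TATA box TATAAA, each searched on both strands.
H2BC21, chr1:149886683-149886932, minus strand: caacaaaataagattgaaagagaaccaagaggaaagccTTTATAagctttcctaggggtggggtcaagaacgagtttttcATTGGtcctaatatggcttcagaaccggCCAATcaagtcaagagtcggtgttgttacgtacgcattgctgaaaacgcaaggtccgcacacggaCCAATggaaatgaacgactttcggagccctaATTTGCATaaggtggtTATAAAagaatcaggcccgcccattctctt
H1-2, chr6:26056471-26056720, minus strand: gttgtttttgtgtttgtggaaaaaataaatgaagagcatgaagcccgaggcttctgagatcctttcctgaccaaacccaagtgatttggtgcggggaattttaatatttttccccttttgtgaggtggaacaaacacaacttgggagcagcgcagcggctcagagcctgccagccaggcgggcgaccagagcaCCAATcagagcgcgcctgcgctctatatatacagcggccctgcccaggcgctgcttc
H4C8, chr6:26285535-26285784, minus strand: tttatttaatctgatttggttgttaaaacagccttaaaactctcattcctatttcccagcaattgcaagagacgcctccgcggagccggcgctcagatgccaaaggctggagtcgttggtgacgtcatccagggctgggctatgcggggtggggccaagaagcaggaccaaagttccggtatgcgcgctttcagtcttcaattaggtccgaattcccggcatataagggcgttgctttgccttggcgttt
H2AJ, chr12:14774155-14774404, plus strand: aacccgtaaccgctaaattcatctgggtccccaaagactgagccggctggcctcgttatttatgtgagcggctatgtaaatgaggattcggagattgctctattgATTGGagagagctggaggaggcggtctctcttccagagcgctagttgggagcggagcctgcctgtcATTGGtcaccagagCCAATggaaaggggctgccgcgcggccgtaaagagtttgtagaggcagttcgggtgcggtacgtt
H2BC21 held the octamer at -46 and TATA boxes at -30 and -212, with CCAAT boxes at -77, -142 and -170, counted from the start site. H1-2 held a CCAAT box at -57, H2AJ CCAAT boxes at -65, -79 and -145, and H4C8 none of these letters in this window.

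A RefSeq promoter was at hand for 75 of the 89 members. The octamer, a binding site of POU-domain factors long known from H2B promoters, was present in 24 of 57 clustered promoters (42.1%) and 1 of 18 variant promoters (5.56%), beside 1.63% of 35116 promoters of all genes. Within the clustered set it stood in 11 of 14 H2A and 12 of 16 H2B promoters, 1 of 10 H3, 0 of 6 H1 and 0 of 11 H4 promoters. These windows are not separate: 20 of the 57 overlap the window of another clustered member, mostly of divergent H2A and H2B pairs, and the 24 windows with the octamer hold 17 separate sites. The CCAAT box was present in 48 of 57 clustered (84.2%) and 16 of 18 variant promoters (88.9%), beside 32% of all, and in 2 of 11 H4 promoters. The TATA box was present in 38 of 57 clustered (66.7%) and 6 of 18 variant promoters (33.3%), beside 10.7% of all. Among the 25 clustered members that rose in knockdown over control, 9 held the octamer, 22 the CCAAT box and 16 the TATA box. Among the 28 untested clustered members with a promoter, 13, 24 and 18 held them.

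Of the 20 variants 8 were tested, and 7 of these 8 differed by less than 2-fold in each comparison, H2AJ being the exception. H3-3B and H3-3A encode the same replacement H3. H3-3B had 687, 746 and 656 CPM in rescue, 593, 694 and 609.9 in knockdown and 399, 480.0 and 485 in control libraries, and rose in knockdown over control (0.48, SE 0.08, adjusted p = 5.4e-05) but did not pass in rescue over knockdown (0.14, SE 0.08, adjusted p = 0.34). H3-3A had 368, 419 and 366 CPM in rescue, 297, 326 and 327 in knockdown and 298, 359 and 326 in control libraries. It did not pass in knockdown over control (-0.05, adjusted p = 0.68) and rose in rescue over knockdown (0.28, adjusted p = 0.019) and over control (0.23, adjusted p = 0.02). The H3-3B model shares 214 bases with a gene on the opposite strand. For H3-3A the first of these calls was lost without knockdown replicate 1 (adjusted p = 0.10) or rescue replicate 2 (0.15), the second without control replicate 1 (0.089), control replicate 3 (0.058) or rescue replicate 2 (0.16).

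H1-10, a replacement linker histone encoded by a gene of its own outside the clusters, had 220.4, 229.5 and 225 CPM in rescue, 192.5, 196 and 219 in knockdown and 208, 195 and 189 in control libraries. It passed only in rescue over control (0.19, adjusted p = 0.034), and leaving out any rescue library (adjusted p = 0.058 to 0.11), control replicate 2 (0.089) or control replicate 3 (0.14) ended that call, as did no scaling (0.059) or no filter (0.053). The H1-10 model shares 345 bases with an antisense gene on the opposite strand.

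H2AZ1 and H2AZ2 encode H2A.Z, the variant found at promoters, and H2AX encodes the form that is phosphorylated at DNA breaks. H2AZ1 had 344, 376 and 292 CPM in rescue, 267, 295 and 309.5 in knockdown and 226, 290.5 and 249.9 in control libraries; it rose in rescue over control (0.40, SE 0.09, adjusted p = 0.0015) and did not pass in knockdown over control (0.19, adjusted p = 0.14). Knockdown over control passed without control replicate 2 (adjusted p = 0.027) and with the replicate number as a block (0.046), and without rescue replicate 3 rescue over knockdown did (adjusted p = 0.041). H2AZ2 had 106, 103 and 93.4 CPM in rescue, 93.6, 89.0 and 96.1 in knockdown and 67.7, 77.7 and 79.3 in control libraries, and rose in knockdown over control (0.31, SE 0.08, adjusted p = 0.0034). H2AX had 154, 160.0 and 172 CPM in rescue, 143, 142 and 151 in knockdown and 128, 114 and 126.5 in control libraries, and rose likewise (0.24, SE 0.07, adjusted p = 0.011), except without control replicate 2 (adjusted p = 0.082). For H2AZ2 and H2AX the control libraries lay below all others.

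**Figure D4:**
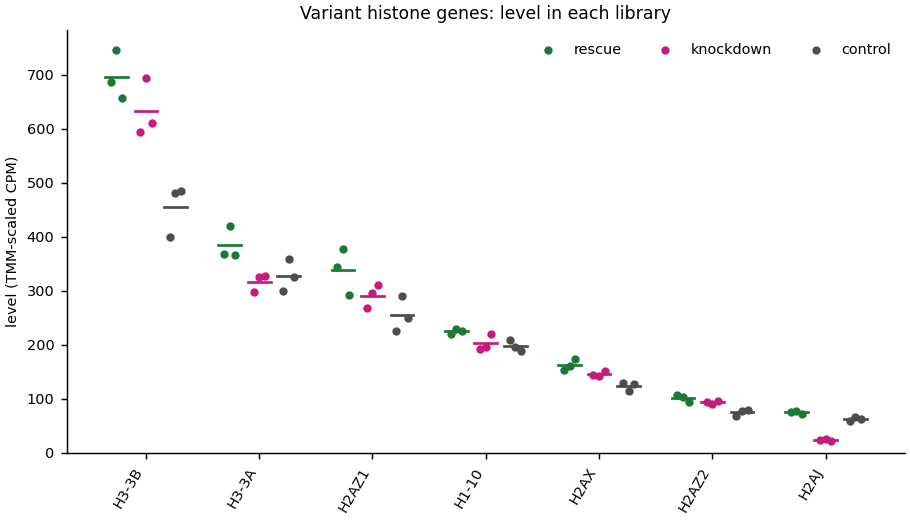
Level of 7 tested variant histone genes in each library, in TMM-scaled CPM on a linear axis. Points are libraries and short lines the means of rescue (green), knockdown (pink) and control (grey). For H2AJ the knockdown points lie at 21.5 to 25.3 CPM, below the rescue and control points.

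H2AJ is an H2A variant with its own C-terminal end, known to accumulate in senescent human cells. It had 74.9, 77.2 and 71.7 CPM in rescue libraries, 22.5, 25.3 and 21.5 in knockdown libraries and 58.3, 66.2 and 61.2 in control libraries. Knockdown was lowest in this gene and the groups did not overlap. The log2 fold change was -1.42 for knockdown over control (SE 0.09, adjusted p = 6.1e-13) and 1.69 for rescue over knockdown (SE 0.09, adjusted p = 2.2e-13). It was the 1 tested histone gene called lower in knockdown than in control, under the main settings and all 18 alternatives. In rescue over control it was 0.27 (SE 0.09, adjusted p = 0.016), a call lost without control replicate 1 (adjusted p = 0.057) or rescue replicate 2 (0.073). H2AJ took 8.70% ± 0.0941 of all H2A reads in rescue, 3.29% ± 0.262 in knockdown and 10.4% ± 0.197 in control cells, shares of reads that are not adjusted for length.

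H2AJ and H4C16 are neighbours on chromosome 12 in RefSeq, with no gene between them. H4C16, the H4 copy there, had 2.35, 2.40 and 4.68 CPM in rescue, 2.21, 1.81 and 1.43 in knockdown and 2.58, 0.974 and 1.45 in control libraries. Knockdown and control libraries overlapped (0.11, SE 0.36, adjusted p = 0.86). It passed in rescue over control (0.90, adjusted p = 0.044), which did not pass when control replicate 2 (adjusted p = 0.19) or 3 (0.13), knockdown replicate 3 (0.051) or rescue replicate 3 (0.36) was left out, without scaling (0.054) or with only the 2 groups fitted (0.053), and which was 1.38 without control replicate 1 (adjusted p = 0.0048). The search found no stem-loop in any of the 3 H2AJ transcripts with an annotated 3′ untranslated region, the longest of 2828 bases.

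Where the annotated gene model ends bears on which histone RNA can be counted. Of the 30 tested clustered members, 15 had a model that runs more than 50 bases past the stem-loop, and these held 62% of clustered CPM over all libraries. In knockdown over control 13 of these 15 rose, with a median of 1.17, beside 16.5% of all tested genes called higher. In 4 tested members the transcript with the stem-loop ends within 50 bases of it, and 3 of them rose (median 2.15); one is H2BC5, which also has an annotated transcript without the stem-loop, with a 3′ untranslated region of 384 bases. All 3 tested members whose annotated 3′ untranslated region gave no match in the search rose (median 1.78). Of the 8 with no annotated 3′ untranslated region, 6 rose (median 1.64). Each median covers all tested members of its class. The 6 clustered genes listed as known sources of polyadenylated RNA, H2BC21, H2BC12, H2BC5, H2BC4, H2AC6 and H1-2, rose in 6 of 6 cases in knockdown over control and in 5 of 6 in rescue over knockdown, with medians of 1.97 and 0.58. Of all tested genes, 16.5% were called higher in knockdown over control and 5.2% in rescue over knockdown. Of all 30 tested clustered members, which include these 6, 25 and 13 rose in the same comparisons. The list was made with earlier results known, and the part of polyadenylated RNA in the differences was not tested. These 6 genes summed to 760.1 to 845 CPM in rescue, 498 to 599.9 in knockdown and 139 to 155.5 in control libraries.

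Whether the libraries were poly(A) selected is not given in the sources used here. Of 21 structural noncoding RNAs without a poly(A) tail 14 were found and 2 could be tested; RN7SK had 0 counts in every library. The list summed to 1.97 to 2.84 CPM in rescue, 3.54 to 4.03 in knockdown and 2.50 to 2.60 in control libraries. The small nucleolar RNA gene SNORA73B rose in knockdown over control (1.57, SE 0.58, adjusted p = 0.038), a call lost when any control library (adjusted p = 0.075 to 0.096), knockdown replicate 2 (0.17) or knockdown replicate 3 (0.073) was left out, with 1.27, 0.24 and 0.524 CPM in rescue, 0.914, 1.81 and 1.24 in knockdown and 0.449, 0.464 and 0.408 in control libraries. The part of RNA without a tail in the histone differences was not tested.

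Of 8 tested coactivators and cell-cycle factors for clustered histone genes, 1 rose and 2 fell in knockdown over control (median -0.19), beside 16.5% higher and 15.6% lower of all genes. In rescue over knockdown 0 rose and 1 fell, beside 5.2% and 4.88%, and in rescue over control 3 rose and 3 fell, beside 19% and 18.8%. The 0 comes from edgeR, and it was 0 also at an unadjusted p under 0.05, in DESeq2 and in limma voom. NPAT, the coactivator that cyclin E and CDK2 switch on at histone clusters, had 15.0, 17.5 and 17.4 CPM in rescue, 19.0, 20.1 and 20.0 in knockdown and 31.3, 25.7 and 30.6 in control libraries. It fell in knockdown over control (-0.57, SE 0.11, adjusted p = 0.00025). CASP8AP2, a partner of NPAT at histone locus bodies, fell in rescue over knockdown (-0.43, adjusted p = 0.038), a call lost without scaling (0.057), with no filter (0.069) or without control replicate 3 (0.051), knockdown replicate 1 (0.14) or 3 (0.086), or any rescue library (0.066 to 0.13). E2F1, an S-phase transcription factor, rose in knockdown over control (0.41, adjusted p = 0.03), a call lost in limma voom (0.053), without scaling (0.065) or without control replicate 2 (0.13) or 3 (0.095) or knockdown replicate 1 (0.099) or 3 (0.18).

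Among 14 factors of histone mRNA 3′ processing and decay 1 rose and 4 fell in knockdown over control (16.5% and 15.6% of all genes). In rescue over knockdown 0 passed by edgeR, DESeq2 or limma voom, beside 10.1% of all genes by edgeR. There 1 was higher and 2 were lower at an unadjusted p under 0.05. SLBP had 97.4, 112 and 111 CPM in rescue, 88.8, 113 and 90.2 in knockdown and 86.5, 101 and 102 in control libraries, with all groups overlapping (0.01 for knockdown over control, adjusted p = 0.96). LSM11, a U7 component, fell in knockdown over control (-0.72, SE 0.18, adjusted p = 0.0024), as did TUT7, which adds uridines to histone mRNA ends during decay (-0.34, adjusted p = 0.0076). SRRT, which joins the cap-binding complex to 3′ processing, rose (0.42, adjusted p = 0.00014).

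Histone chaperones carry new histones to DNA. Of 22 tested, 6 rose and 3 fell in knockdown over control (median -0.02), beside 16.5% and 15.6% of all genes, and 2 rose and 1 fell in rescue over knockdown, beside 5.2% and 4.88%. NASP, the H3-H4 and linker histone chaperone, had 84.5, 92.8 and 87.5 CPM in rescue, 94.4, 95.3 and 103 in knockdown and 133, 129 and 128 in control libraries and fell in knockdown over control (-0.41, SE 0.07, adjusted p = 5.5e-05). HAT1, which acetylates new H4, rose there (0.58, SE 0.11, adjusted p = 8.3e-05), and DEK, a chaperone of replacement H3, rose in both comparisons (0.25, adjusted p = 0.02, and 0.39, adjusted p = 0.0022), the first call being lost without control replicate 1 (0.17) or knockdown replicate 1 (0.073) or 2 (0.052).

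Genes of DNA replication act in S phase, and the part of S phase in the histone differences was not tested. Of 24 tested, 6 rose and 2 fell in knockdown over control (median 0.20), 2 rose and 1 fell in rescue over knockdown (median 0.07), and 10 rose and 2 fell in rescue over control (median 0.27), beside 16.5% and 15.6%, 5.2% and 4.88%, and 19% and 18.8% of all genes higher and lower. The list summed to 1025 to 1150 CPM in rescue, 1019 to 1057 in knockdown and 893 to 960.4 in control libraries. RFC3, a clamp loader subunit, had 56.2, 59.0 and 58.3 CPM in rescue, 38.1, 36.5 and 35.3 in knockdown and 25.8, 24.9 and 24.9 in control libraries, rising by 0.54 in knockdown over control (adjusted p = 3.7e-05) and by 0.66 in rescue over knockdown (adjusted p = 7.8e-06). TK1, an enzyme of nucleotide supply, rose in knockdown over control (0.41, adjusted p = 0.00041). RRM2, a ribonucleotide reductase subunit, fell there (-0.50, adjusted p = 8.6e-05) and rose in rescue over knockdown (0.36, adjusted p = 0.0096; without rescue replicate 1, 0.06).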

How the data were processed

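Reads per gene were deposited as raw counts, 1 table per library. FastQC, cutadapt, HISAT2 and HTSeq with the hg19 build are named, per the submitters' processing notes; their versions, the strand setting and the library kit are not stated in any source at hand. Uniquely assigned gene counts were 40.3% to 42.92% of each table; rows for no feature (48.83% to 50.71%), ambiguous (2.26% to 2.67%) and multiply aligned reads (5.26% to 7.62%) were left out, so near-identical histone copies may be undercounted and their split is uncertain. Of 60880 identifiers, 40608 were named from a symbol table and 715 from GENCODE v29, 6 members among them.

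The analysis used edgeR 4.0.16 under R 4.3.3, with filterByExpr at a minimum count of 10 (18389 genes), TMM, a robust quasi-likelihood fit of all 9 libraries with 1 mean per group, glmQLFTest, and Benjamini-Hochberg adjustment over all tested genes with a threshold of 0.05. Adjusted p-values come from this test, two-sided, unless another tool, setting or left-out library is named. The words "rose", "fell" and "called" mean that this test was passed. The SE was obtained as |log2 fold change| divided by the root of the F statistic. Levels are CPM on TMM-scaled library sizes.

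The members, gene lists and tests were chosen with earlier results of these data known. Per-library values are given for up to 4 tested members of each clustered family with the highest mean CPM over all libraries and 7 of the 8 tested variants, and up to 3 called genes per list with the smallest adjusted p, leaving out 1 variant and 1 replication gene that are counted but not reported here; SLBP, RRM2 and lower members named beyond this rule were picked after their values were seen. On simulated counts for knockdown against control, 200 of 18389 genes were changed. There 49.3% of 1.5-fold, 68.7% of 2-fold and 87.9% of 4-fold changes were recovered, and 0.033% of unchanged genes were called. In the data 32.1% of genes were called in that comparison, so these rates may not hold for the data. DESeq2 1.42.0, limma voom (limma 3.58.1), other scalings and filters, a replicate block and each library left out served as 18 alternatives; applying them to named genes that are no members was chosen after seeing the data.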

Additional observations from a re-analysis of the deposited data

How the results depend on the processing

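Of 114 differences, 3 for each of the 38 tested members, 80 were called; over 17 or 18 alternatives 68 kept their call in all, 12 lost it in some, and none of the 80 reversed. Clustered members called higher numbered 23 to 26 in knockdown over control, 10 to 14 in rescue over knockdown and 25 to 28 in rescue over control, with 0 lower throughout. Leaving out 1 library gave 1193 to 2360 genes called in all for rescue over knockdown and 5 to 8 variants called higher in rescue over control; the lowest values were those without rescue replicate 1 and without rescue replicate 2, against 1854 and 8 with all libraries, and fewer samples were fitted. Without mitochondrial genes in the library size, summed clustered CPM in control was 257.2, against 248, by construction. The member and UGT2B28 differences that changed sign were uncalled, and with 1 library left out they ranged from -1.457 to 0.163 for UGT2B28 in knockdown over control, -0.099 to 0.219 for H2AC8 in rescue over control, -0.164 to 0.597 for H2AC20 and -0.314 to 0.541 for H4C11 in rescue over control, -0.012 to 0.129 for H2BC18, -0.191 to 0.443 for H4C4 and -0.129 to 0.17 for H4C5 in rescue over knockdown (-0.011 and -0.019 without rescue replicates 1 and 3), and, in knockdown over control, -0.162 to 0.58 for H4C16 (-0.06 without knockdown replicate 1), -0.68 to 0.177 for H4C11, -0.117 to 0.016 for H3-3A and -0.021 to 0.075 for H1-10. The cause was not tested. Same-numbered libraries correlated by -0.031 to 0.157 and do not all correlate best with their own number (4, 2 and 2 of 6 for the 3 pairs of groups), so the numbers were not taken as pairs; with the replicate block 6348, 2319 and 7363 genes were called in knockdown over control, rescue over knockdown and rescue over control, and 26, 13 and 27 clustered members rose. The 51 untested members had too few reads for the filter, and few reads limit tested members such as H3C13, HIST1H3B, H4C4, H2BC17 and H1-4.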

Other observations

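Rows with a histone name that are no protein-coding members, chosen after their values were seen, gave these values. The pseudogene H1-12P, a relative of the linker histone genes, had 5.04, 6.25 and 6.17 CPM in rescue, 9.33, 7.98 and 7.49 in knockdown and 2.06, 2.46 and 1.86 in control libraries, and rose in knockdown over control (log2 fold change 1.96, SE 0.21, adjusted p = 2.3e-08). H4C10P rose as well (2.16, SE 0.52, adjusted p = 0.0017), on 25 to 30 counts in knockdown and 3 to 8 in control libraries. H2BC20P and H2BC19P rose by 0.52 and 0.40 in knockdown over control. Whether reads of near-identical coding copies were assigned to these rows was not tested.

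MACROH2A1 and CENPA are histones outside the member rule. MACROH2A1, the large H2A variant of silent chromatin, had 205, 213 and 211 CPM in rescue, 221, 212 and 240.0 in knockdown and 224, 221 and 219 in control libraries, and neither it nor MACROH2A2 passed in any of the 3 comparisons. CENPA, the H3 of centromeres, had 24.8, 25.7 and 23.7 CPM in rescue, 14.5, 17.4 and 21.6 in knockdown and 14.3, 21.1 and 18.2 in control libraries. It rose in rescue over knockdown (0.47, SE 0.14, adjusted p = 0.028; 0.056 to 0.17 without knockdown replicate 1 or 2 or any rescue library), where the groups did not overlap.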
